A study of Mus musculus with 3 samples.

Results

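The 10 genes described here are imprinted genes known for effects on fetal and early postnatal growth: H19, Igf2, Igf2r, Dlk1, Meg3, Mest, Peg3, Plagl1, Cdkn1c and Grb10. They were chosen by name, as 10 of the 36167 genes in the matrices, and each was read per pool and per class of nuclei in nuclei with at least 1000 UMIs (unique molecular identifiers, each counting 1 captured RNA molecule) and at most 5% of UMIs from mitochondrial genes. The nuclei came from frozen aortic valve structures of mouse pups on postnatal day 1, of the strain labelled B6.Cg-Scx<tm1.1(EGFP)Skom, with the stock number RBRC11098, which carries an EGFP allele of the tendon and connective tissue gene Scx. There were 3 pools of 22 to 24 aortic roots each and 1 group only, with no other genotype, age or treatment. The labels do not give the zygosity of the allele, and each pool mixes many pups, so the spread between pools is not the spread between animals.

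An imprinted gene is transcribed mainly from the copy inherited from 1 parent, because DNA methylation laid down in the egg or sperm marks the 2 copies differently; the marked copy is the silent one in some domains and the active one in others. H19, Igf2r, Meg3, Cdkn1c and, outside the nervous system, Grb10 are known as maternally expressed, whereas Igf2, Dlk1, Mest, Peg3 and Plagl1 are known as paternally expressed, which makes 5 genes of each kind. Several of the paternally expressed genes promote growth and several of the maternally expressed ones restrain it: Igf2 encodes a fetal growth factor, Igf2r a receptor that takes that factor to lysosomes, Cdkn1c an inhibitor of cyclin-dependent kinases, and Grb10 an adaptor that dampens insulin and IGF receptor signalling. H19 lies beside Igf2 and Meg3 beside Dlk1, and in each of these domains a noncoding RNA and a protein-coding gene are transcribed from opposite parental copies. The counts do not separate the parental copies, so no statement about imprinting itself can be read from them.

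H19, Igf2, Mest and Meg3 are also the genes within which microRNAs are annotated, and 1 mature sequence from each is shown to make plain what else these transcription units yield. The sequences are from RefSeq (GRCm38.p6, on which all positions here are given), 5′ to 3′, with the seed, bases 2 to 8, in capitals, and no seed is shared among them. The microRNAs were not measured by these libraries.
miR-675-5p, in H19, chr7:142577112-142577133, minus strand: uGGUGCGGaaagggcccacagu
miR-483-5p, in Igf2, chr7:142654968-142654989, minus strand: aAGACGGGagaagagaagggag
miR-335-5p, in Mest, chr6:30741314-30741336, plus strand: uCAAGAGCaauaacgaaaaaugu
miR-770-5p, in Meg3, chr12:109563710-109563731, plus strand: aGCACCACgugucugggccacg

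Promoter windows of 300 bases, from 250 before to 50 after an annotated start, were found in RefSeq for 8 of the 10 genes, 15 windows in all. H19 and Cdkn1c had no entry. Cytosines followed by guanines (CpG) are the sites at which imprinting marks are carried, and the windows held from 1 of them at a Meg3 start to 45 at a Grb10 start, beside a median of 7 over all 32851 windows. The Igf2 window with the most CpG is shown because Igf2 is the growth factor gene of the set; it held 24, in capitals.
Igf2, chr7:142658755-142659054, minus strand: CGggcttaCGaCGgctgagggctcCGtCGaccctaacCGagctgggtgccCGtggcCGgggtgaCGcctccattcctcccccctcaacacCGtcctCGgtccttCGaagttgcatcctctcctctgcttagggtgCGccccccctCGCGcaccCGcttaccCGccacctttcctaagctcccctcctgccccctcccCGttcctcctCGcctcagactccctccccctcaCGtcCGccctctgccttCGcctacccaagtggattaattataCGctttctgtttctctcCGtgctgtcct
Plagl1 encodes a zinc finger protein (ZAC1) known to bind GC-rich palindromes, so GGGGCCCC and GGGGNNNNNNCCCC were searched on both strands. GGGGCCCC stood in 1 of the 15 windows, that of Peg3, and in 1.08% of all windows. GGGGNNNNNNCCCC stood in 0 of the 15 and in 1.11% of all. The Peg3 window is shown with the match in capitals; a match is letters in a window and says nothing of binding.
Peg3, chr7:6730370-6730669, minus strand: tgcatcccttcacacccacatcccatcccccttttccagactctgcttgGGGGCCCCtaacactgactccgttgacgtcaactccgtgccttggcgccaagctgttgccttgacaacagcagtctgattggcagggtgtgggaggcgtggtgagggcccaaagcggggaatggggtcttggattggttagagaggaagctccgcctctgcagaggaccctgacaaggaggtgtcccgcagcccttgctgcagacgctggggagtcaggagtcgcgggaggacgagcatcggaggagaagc

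Of 21140 deposited nuclei with 96513814 UMIs, 13130 were analysed, 6459, 3078 and 3593 in pools 1 to 3, and they fell into 28 clusters. Clusters were named from marker genes; the 10 genes and the other listed imprinted genes had been kept out of the clustering. Of the 13 classes, 9 had 20 or more nuclei in each pool, 12458 nuclei together: 3565 smooth muscle-like, 2728 endothelial-like, 2610 cardiomyocyte-like, 1542 valve interstitial-like, 1115 fibroblast-like, 374 mesothelial-like, 253 macrophage-like, 152 pericyte-like and 119 lymphatic endothelial-like. The labelled tissue was thus present through its defining cells, with 7 valve interstitial markers, Adamts19, Rmst and Hapln1 among them, passing in 1 cluster of 947 nuclei and 5, among them Col9a1, Matn4 and Col11a1 but none of those 3, in another of 595, beside aortic wall, heart muscle and surface cells. The smooth muscle-like class includes 1645 nuclei led by Clca3a2 in which 4 pericyte markers and 3 smooth muscle markers passed and 0 of the 10 leading genes were smooth muscle markers. The summed smooth muscle markers of the class, at 2885 to 3834 CPM, overlapped those of pericyte-like nuclei (3310 to 3880 CPM) and lay below those of cardiomyocyte-like nuclei (4185 to 4659 CPM). The summed fibroblast markers of fibroblast-like nuclei, at 12671 to 14155.5 CPM, overlapped those of smooth muscle-like nuclei (12405 to 13175 CPM). They lay just above those of pericyte-like nuclei (11080 to 12515 CPM). The pools differed in quality: 28.6%, 41.8% and 14.1% of deposited nuclei in pools 1, 2 and 3 were over the mitochondrial limit, and 34, 29 and 15 cell barcodes were shared by pools 1 and 2, 1 and 3, and 2 and 3 after filtering. Mesothelial-like nuclei stood apart, with a median of 9842.5 UMIs and with 6.37% of UMIs from ribosomal protein genes, where the means of the other 8 classes ran from 1.08% to 3.01%; their mean of the pools' median mitochondrial share was 2.83%, beside 0.439% to 1.74% in those 8. The part of these differences in the results was not tested.

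Levels are given as CPM, the UMIs of a gene scaled to a fixed total of all UMIs of that class in that pool, as mean ± SD over the 3 pools (n = 3), and are compared only between classes within 1 gene. Differences are log2 values from edgeR's quasi-likelihood test, a class against the unweighted mean of the other 8 with the pool as a block, and adjusted p-values are Benjamini-Hochberg over all 14282 genes tested. All 10 genes passed the filter on low counts. Each of the 10 differed among the 9 classes, against 90.6% of all genes tested. The clusters were built from 2000 variable genes, so class differences over all genes are not independent of the clustering, and the share of all genes called is given beside each comparison below.

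**Figure D1:**
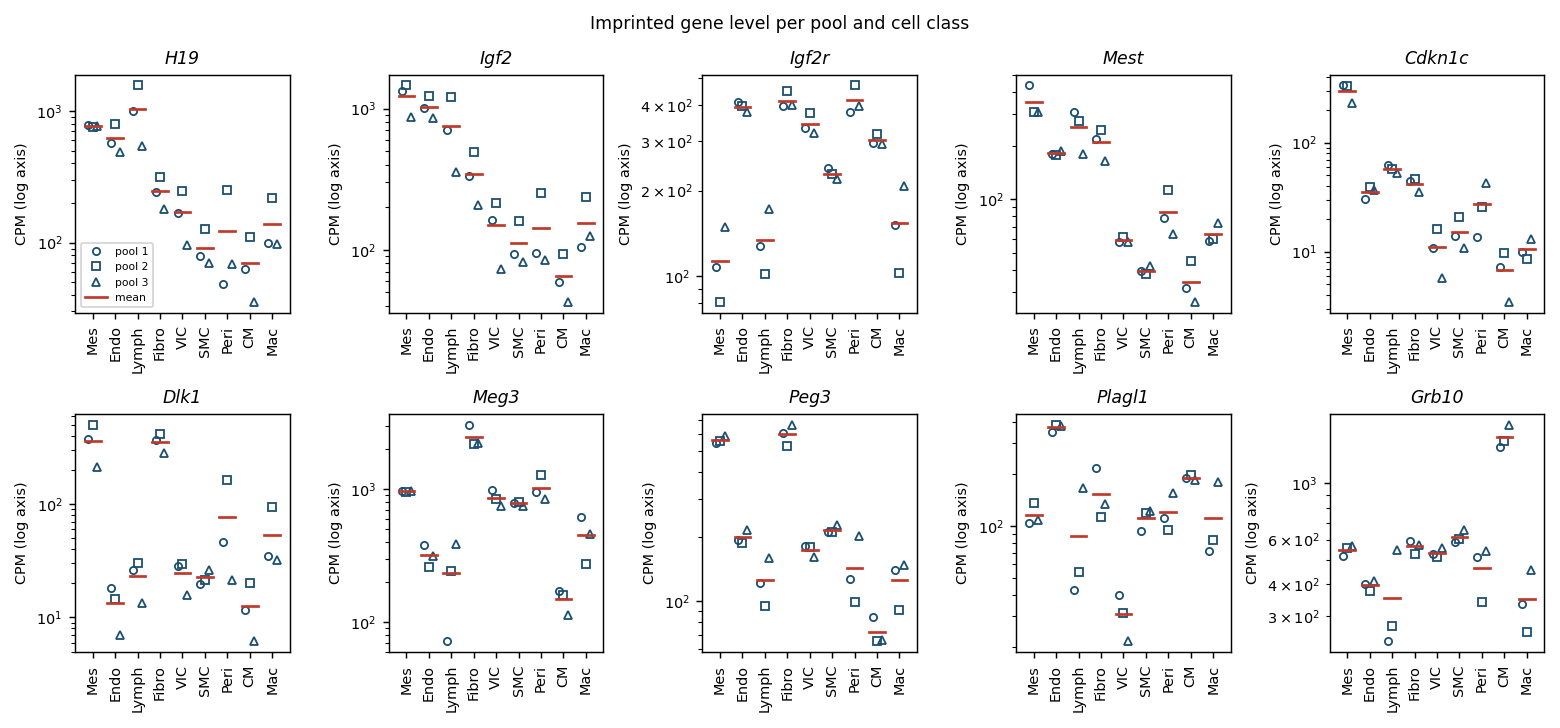
Level of each imprinted gene (CPM, log axis) in 9 classes of nuclei; each point is 1 of 3 pools (circle 1, square 2, triangle 3) and the red line is the mean. Mes, mesothelial-like; Endo, endothelial-like; Lymph, lymphatic endothelial-like; Fibro, fibroblast-like; VIC, valve interstitial-like; SMC, smooth muscle-like; Peri, pericyte-like; CM, cardiomyocyte-like; Mac, macrophage-like. Grb10 is highest in CM, Plagl1 in Endo and lowest in VIC, and Cdkn1c in Mes.

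Igf2, the growth factor gene, was highest in the cells lining surfaces. Those 3 classes, mesothelial-like, lymphatic endothelial-like and endothelial-like, also had the highest mitochondrial shares of the 9 (2.83%, 1.74% and 1.37%), and cardiomyocyte-like nuclei, lowest in Igf2 and H19, the lowest (0.439%); the part of this in either gene was not tested. Mesothelial-like nuclei held 1321, 1459 and 878 CPM in pools 1, 2 and 3, endothelial-like nuclei 1015, 1219 and 850 CPM, and lymphatic endothelial-like nuclei 701, 1200.1 and 353 CPM. These 3 classes overlapped one another, and in each the third pool was the lowest. Fibroblast-like nuclei followed at 346 ± 144 CPM, and valve interstitial-like nuclei held 163, 214 and 73.1 CPM. The lowest level was in cardiomyocyte-like nuclei, at 59.3, 92.8 and 42.6 CPM, which no endothelial-like or mesothelial-like pool approached. Igf2 was higher in mesothelial-like (log2 difference 2.69, SE 0.11, edgeR adjusted p = 6.6e-19), endothelial-like (2.18, SE 0.11) and lymphatic endothelial-like nuclei (edgeR adjusted p = 1.11e-09) than in the others. The lymphatic call was lost among nuclei with at most 1% mitochondrial UMIs, which were fewer (0.87, adjusted p = 0.0596). Igf2 was lower in cardiomyocyte-like (-1.95), smooth muscle-like (-1.38), pericyte-like (-1.20), macrophage-like (-1.13) and valve interstitial-like nuclei (-1.03, SE 0.15, edgeR adjusted p = 2.8e-06). The pericyte call was also lost among nuclei with at most 1% mitochondrial UMIs (-0.82, adjusted p = 0.0511) and without the block (adjusted p = 0.0567).

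H19, the maternally expressed noncoding neighbour of Igf2, had nearly the same order. It stood at 996, 1571 and 539 CPM in lymphatic endothelial-like nuclei, at 789.8, 756 and 777 CPM in mesothelial-like nuclei and at 572, 805 and 491 CPM in endothelial-like nuclei. The 119 lymphatic endothelial-like nuclei gave the widest spread of these classes and the mesothelial-like nuclei the narrowest. In the lymphatic endothelial-like cluster 4 of 7 erythroid markers also passed, and their summed level ran from 272 to 24411 CPM over the pools, beside 130 to 1514 CPM in the other 8 classes; the part of this in the level of H19 or any other gene of the class was not tested. Valve interstitial-like nuclei held 168, 248 and 95.4 CPM and cardiomyocyte-like nuclei 62.4, 111 and 35.3 CPM. H19 was higher in lymphatic endothelial-like (2.26, SE 0.15), mesothelial-like (2.24, SE 0.14) and endothelial-like nuclei (1.56, SE 0.14, edgeR adjusted p = 4.5e-11). It was lower in cardiomyocyte-like (-1.66, SE 0.18), smooth muscle-like (-1.46, SE 0.18), pericyte-like (-1.29, SE 0.25) and macrophage-like nuclei (-1.11, SE 0.21). The pericyte call was lost without pool 1 (-0.86, adjusted p = 0.0810), without the block (adjusted p = 0.0597) and among nuclei with at most 1% mitochondrial UMIs (adjusted p = 0.0528). The macrophage call was lost at that limit too (-0.68, adjusted p = 0.107). In valve interstitial-like nuclei H19 was also lower by the test (-0.59, SE 0.17, edgeR adjusted p = 0.00735), but the call was lost without pool 3 (-0.46, adjusted p = 0.0745), without the block (adjusted p = 0.215) and when the lymphatic endothelial-like class was left out (-0.30, adjusted p = 0.181).

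The levels of H19 and Igf2 over all analysed nuclei moved with the pool: 275, 398 and 186 CPM for H19 and 415, 551 and 262 CPM for Igf2 in pools 1, 2 and 3. Pool 2, with the largest share of nuclei over the mitochondrial limit, was the highest for both and pool 3, with the smallest share, the lowest. Dlk1 (74.2, 87.4 and 38.9 CPM) and Cdkn1c (44.2, 44.0 and 22.4 CPM) were also lowest in pool 3, whereas Igf2r (293, 320 and 285 CPM) and Peg3 (231, 201 and 212 CPM) moved less. Mest (117, 119 and 86.5 CPM) was lowest in pool 3 too, and Grb10 (675, 746 and 876 CPM) was highest there. These values mix classes whose share of UMIs differed between pools. Endothelial-like nuclei, with 52.1% of Igf2 and 44.8% of H19 UMIs, held 20.5% ± 5.3 of all UMIs (mean ± SD over pools). Mesothelial-like nuclei, with 44.9% of Cdkn1c and 29.8% of Dlk1 UMIs, held 5.56% ± 2.44. Of the 163 unnamed nuclei, of median depth 15026.0 UMIs, 135 were in pool 3. The parts of class composition and of RNA quality in this were not tested. Among cardiomyocyte-like clusters H19 was highest in the 305 nuclei led by Mb and Fabp3, at 296 ± 82.0 CPM, against 33.5 ± 16.4 CPM in the 1519 nuclei led by Fgf13; the former had a mean median mitochondrial share of 3.17%, the latter 0.37%.

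Detection nucleus by nucleus was compared after every nucleus was thinned to 1000 UMIs, and its order differed from that of the CPM in places. An H19 UMI was found in 41.7% ± 6.2 of lymphatic endothelial-like, 34.4% ± 3.9 of mesothelial-like and 30.1% ± 5.3 of endothelial-like nuclei (SD, n = 3 pools), beside 7.59% ± 3.95 of cardiomyocyte-like and 6.48% ± 2.86 of smooth muscle-like nuclei. An Igf2 UMI was found in 57.9% ± 10.4 of mesothelial-like, 41.6% ± 11.998 of lymphatic endothelial-like and 39.8% ± 5.1 of endothelial-like nuclei and in 6.95% ± 3.03 of cardiomyocyte-like nuclei. Free RNA was not measured, and shares near those of cardiomyocyte-like and smooth muscle-like nuclei are not read as expression. Without thinning the H19 shares were 58.3% in endothelial-like nuclei, of median depth 4440.0 UMIs, and 23.7% in cardiomyocyte-like nuclei, of median depth 5321.5 UMIs.

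H19 was found more often in nuclei that also held Igf2 in 3 of 3 pools for 6 of the 9 classes, in 2 of 3 for lymphatic endothelial-like and macrophage-like nuclei and in 1 of 3 for pericyte-like nuclei. Among endothelial-like nuclei with an Igf2 UMI at this depth, 44.4% ± 6.8 held an H19 UMI, against 20.4% ± 2.3 of those without. Among mesothelial-like nuclei the shares were 45.6% ± 5.4 and 20.2% ± 5.0, and among valve interstitial-like nuclei 28.4% ± 12.6 and 9.51% ± 4.45. In cardiomyocyte-like nuclei, low in both genes, they were 21.4% ± 4.6 and 6.55% ± 3.41. Nuclei with an Igf2 UMI had a higher median mitochondrial share, 1.89% against 1.07% in endothelial-like, 1.91% against 0.417% in cardiomyocyte-like and 1.80% against 0.795% in valve interstitial-like nuclei, and its part in the pairing was not tested.

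Igf2r, the receptor that clears Igf2, had the narrowest range of the 10, 3.70-fold between its highest and lowest class. It stood at 379, 471 and 399 CPM in pericyte-like, 398, 451 and 400.0 CPM in fibroblast-like and 410.4, 399 and 379.8 CPM in endothelial-like nuclei, which overlapped. Valve interstitial-like nuclei held 334, 377 and 320.5 CPM. The lowest level was 107, 80.9 and 149 CPM in mesothelial-like nuclei, the class with the highest mean of Igf2. Igf2r was higher in fibroblast-like (0.77, SE 0.11), pericyte-like (0.74, SE 0.14), endothelial-like (0.69, SE 0.11), cardiomyocyte-like (0.68, SE 0.11) and valve interstitial-like nuclei (0.47, SE 0.11, edgeR adjusted p = 0.0014), and lower in lymphatic endothelial-like (-1.21), mesothelial-like (-1.14, SE 0.14) and macrophage-like nuclei (-0.93). Among nuclei with at most 1% mitochondrial UMIs the calls were lost in endothelial-like (0.32, adjusted p = 0.0631), valve interstitial-like (0.32, adjusted p = 0.0785) and lymphatic endothelial-like nuclei (-0.76, adjusted p = 0.0732), and with library totals in place of TMM the cardiomyocyte value was 0.32 (adjusted p = 0.0126). With no mitochondrial limit the pericyte value was 0.32 and the lymphatic value -0.76, and at 500 or more UMIs the macrophage value was -1.70.

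Cdkn1c, the cell cycle inhibitor p57, was concentrated in mesothelial-like nuclei at 336, 333 and 232 CPM. The next class, lymphatic endothelial-like, held 62.3, 56.9 and 53.2 CPM, with no overlap. The log2 difference in mesothelial-like nuclei was 4.16 (SE 0.11, edgeR adjusted p = 3.1e-24), the widest of any class for the 10 genes, and it was 3.55 among nuclei with at most 1% mitochondrial UMIs, of which this class had 19, 4 and 11 in the 3 pools. Cdkn1c was low in valve interstitial-like (10.7, 16.3 and 5.74 CPM; difference -1.49, SE 0.22) and cardiomyocyte-like nuclei (7.19, 9.66 and 3.45 CPM; difference -1.85). It was also lower in macrophage-like (-1.68, SE 0.37) and smooth muscle-like nuclei (-0.94, SE 0.17). The macrophage call was lost among nuclei with at most 1% mitochondrial UMIs (-0.98, adjusted p = 0.177), and the smooth muscle value was -1.83 with no mitochondrial limit. In fibroblast-like nuclei Cdkn1c was higher (0.67, SE 0.17, edgeR adjusted p = 0.0027), a call lost without pool 1 (0.57, adjusted p = 0.0694) and among nuclei with at most 1% mitochondrial UMIs (0.59, adjusted p = 0.136). In lymphatic endothelial-like nuclei it was also higher (1.07, SE 0.31), and the call was lost without pool 1 (0.90, adjusted p = 0.132) or pool 2 (1.21, adjusted p = 0.0520). That call was lost too with no mitochondrial limit (0.64, adjusted p = 0.0914) and at the 1% limit (1.22, adjusted p = 0.365).

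Grb10, the insulin receptor adaptor, was the 1 gene of the 10 that was highest in heart muscle. Cardiomyocyte-like nuclei held 1394, 1470.1 and 1699 CPM, and smooth muscle-like nuclei, the next class, 586, 603 and 653 CPM, without overlap. The other 8 classes had means between 350 and 614 CPM. Grb10 was higher in cardiomyocyte-like nuclei (2.08, SE 0.10, edgeR adjusted p = 6.2e-18) and lower in lymphatic endothelial-like (-0.90), macrophage-like (-0.86) and endothelial-like nuclei (-0.54, SE 0.12). The lymphatic call was lost among nuclei with at most 1% mitochondrial UMIs (-0.63, adjusted p = 0.0897), and the macrophage value was -1.51 at 500 or more UMIs. Its higher value in smooth muscle-like nuclei (0.29, SE 0.11, edgeR adjusted p = 0.0421) lost the call in 12 of 15 alternatives. Valve interstitial-like nuclei, at 526, 515 and 558 CPM, did not pass the test (-0.05, SE 0.12).

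Dlk1, a transmembrane protein of the Notch ligand kind that restrains differentiation of fat and connective tissue precursors, was concentrated in 2 classes. It stood at 373, 501 and 211 CPM in mesothelial-like and at 367, 417 and 283 CPM in fibroblast-like nuclei. Pericyte-like nuclei followed at 46.0, 164 and 21.3 CPM and macrophage-like nuclei at 34.7, 94.0 and 32.4 CPM, and neither class passed the test. Endothelial-like nuclei held 18.3, 14.5 and 7.06 CPM, valve interstitial-like nuclei 28.5, 29.8 and 15.8 CPM and cardiomyocyte-like nuclei 11.6, 19.9 and 6.16 CPM. Dlk1 was higher in mesothelial-like (3.50, SE 0.16) and fibroblast-like nuclei (3.25, SE 0.15, edgeR adjusted p = 7.2e-17) and lower in endothelial-like (-2.02), cardiomyocyte-like (-1.81), lymphatic endothelial-like (-1.24, edgeR adjusted p = 0.0495), smooth muscle-like (-1.10) and valve interstitial-like nuclei (-1.07, SE 0.24). The lymphatic call was lost without any 1 of the 3 pools (adjusted p of 0.053 to 0.236). In smooth muscle-like nuclei the value was -2.27 with no mitochondrial limit, -2.26 at resolution 0.5 and -1.80 at 500 or more UMIs, and the valve interstitial call was lost among nuclei with at most 1% mitochondrial UMIs (-0.70, adjusted p = 0.212).

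Meg3, the maternally expressed noncoding RNA beside Dlk1, was highest in fibroblast-like nuclei too, at 3059, 2185 and 2213 CPM. It ran on through classes in which Dlk1 was low: 979, 843 and 749 CPM in valve interstitial-like and 796, 804 and 748 CPM in smooth muscle-like nuclei. The lowest class was cardiomyocyte-like, at 172, 161 and 115 CPM. Meg3 was higher in fibroblast-like (2.27, SE 0.15, edgeR adjusted p = 1.9e-13) and mesothelial-like nuclei (1.01, SE 0.17) and lower in cardiomyocyte-like (-1.85), lymphatic endothelial-like (-1.73) and endothelial-like nuclei (-1.05). It was also higher in pericyte-like nuclei (0.82, SE 0.19, edgeR adjusted p = 0.00223), a call lost without pool 2 (0.60, adjusted p = 0.0631), among nuclei with at least 500 UMIs (0.26, adjusted p = 0.256) and among those with at most 1% mitochondrial UMIs (0.72, adjusted p = 0.104), and in smooth muscle-like nuclei (0.53, SE 0.17, edgeR adjusted p = 0.0133), a call lost in 4 of 15 alternatives. In valve interstitial-like nuclei it was higher (0.57, SE 0.17, edgeR adjusted p = 0.0109), a call lost at similar values with DESeq2 (0.53, adjusted p = 0.0838), without the block (0.56, adjusted p = 0.0511) and among nuclei with at most 1% mitochondrial UMIs (0.61, adjusted p = 0.0736), and in macrophage-like nuclei lower (-0.57, edgeR adjusted p = 0.0369), a call lost without pool 2 (-0.28) or pool 3 (-0.55) and kept without pool 1 (-0.87). Within fibroblast-like nuclei, a Dlk1 UMI was found in 25.9% ± 1.8 of nuclei with a Meg3 UMI and in 8.11% ± 5.23 of those without, higher in 3 of 3 pools at 1000 UMIs per nucleus. The median mitochondrial share was 0.668% in the former and 0.938% in the latter. In mesothelial-like nuclei, the class with the highest mean of Dlk1, the shares were 24.0% ± 2.8 with Meg3 and 28.3% ± 14.0 without, and the share with Meg3 was the higher in 2 of 3 pools.

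Mest, an enzyme of the alpha/beta hydrolase kind that is known in fetal mesoderm and expanding fat, was highest in mesothelial-like nuclei like Igf2, but with fibroblast-like above endothelial-like nuclei in the mean. It stood at 437, 308 and 308 CPM in mesothelial-like, 308, 275 and 179.6 CPM in lymphatic endothelial-like, 219, 244 and 164 CPM in fibroblast-like and 179, 177 and 187 CPM in endothelial-like nuclei. Valve interstitial-like nuclei were at 57.4, 61.3 and 57.4 CPM, apart from all 4 of these. Mest was higher in mesothelial-like (2.18, SE 0.12), lymphatic endothelial-like (1.35), fibroblast-like (1.05) and endothelial-like nuclei (0.82, SE 0.12, edgeR adjusted p = 8.5e-07), and lower in smooth muscle-like (-1.52), cardiomyocyte-like (-1.45), valve interstitial-like (edgeR adjusted p = 3.51e-06) and macrophage-like nuclei (-0.99).

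Peg3, a zinc finger protein linked to growth and cell survival, split the mesenchymal cells. Fibroblast-like nuclei held 609.5, 529 and 664 CPM and mesothelial-like nuclei 545, 555 and 590.3 CPM, and each of these pools lay above every pool of the third class, smooth muscle-like, at 211, 211 and 226 CPM. Valve interstitial-like nuclei held 181, 180.0 and 161 CPM, below every endothelial-like pool (193, 187 and 216 CPM). Peg3 was higher in mesothelial-like (1.92, SE 0.09) and fibroblast-like nuclei (1.76, SE 0.09, edgeR adjusted p = 5.7e-16) and lower in cardiomyocyte-like (-1.23), lymphatic endothelial-like (-0.91), macrophage-like (-0.85) and pericyte-like nuclei (-0.64). The pericyte call was lost without pool 1 (adjusted p = 0.201) or pool 2 (adjusted p = 0.0605), and its value was -0.0069 at 500 or more UMIs and 0.063 with no mitochondrial limit. The lymphatic call was lost among nuclei with at most 1% mitochondrial UMIs (-0.32, adjusted p = 0.673), and the macrophage value was -1.54 at 500 or more UMIs.

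Plagl1, a zinc finger transcription factor known as a regulator of other imprinted genes, had its highest level in endothelial-like and its lowest in valve interstitial-like nuclei. Endothelial-like nuclei held 349, 385 and 379 CPM and cardiomyocyte-like nuclei, the next class, 188, 197 and 185 CPM. Valve interstitial-like nuclei held 39.97, 31.5 and 21.5 CPM, below every pool of every other class. Plagl1 was higher in endothelial-like (1.79, SE 0.15, edgeR adjusted p = 1.6e-11) and cardiomyocyte-like nuclei (1.14, SE 0.16) and lower in valve interstitial-like nuclei (-2.15, SE 0.23, edgeR adjusted p = 7.1e-09). The lower value in lymphatic endothelial-like nuclei (-0.90, SE 0.33, edgeR adjusted p = 0.0461) was lost without pool 1 (-0.55) or pool 2 (-0.72), and the value was -1.46 without pool 3. In fibroblast-like nuclei Plagl1 did not pass (0.39, SE 0.18), and its value ran from -0.034 without pool 1 to 0.62 without pool 3.

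**Figure D2:**
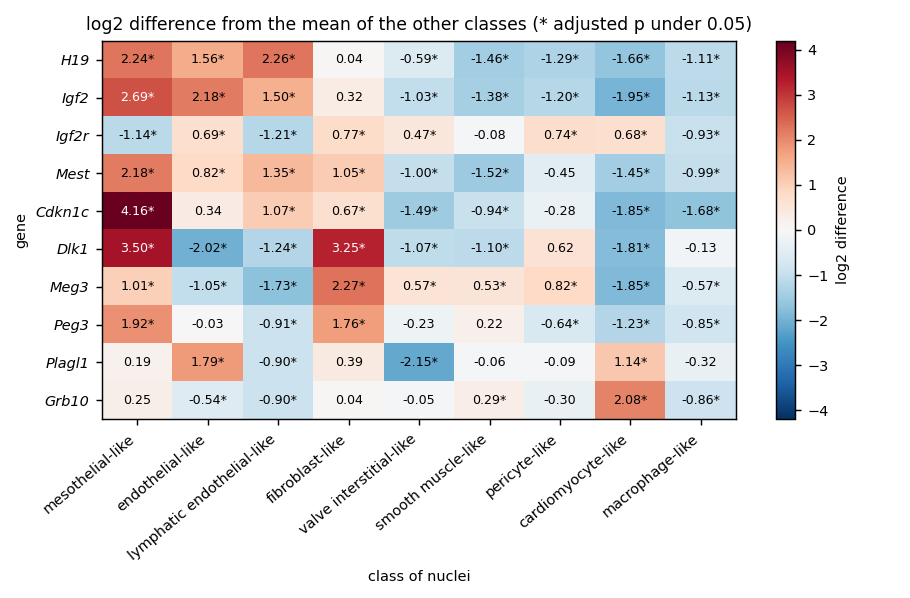
Log2 difference of each imprinted gene (rows) in each class (columns) from the mean of the other classes, from edgeR's quasi-likelihood test on 27 summed libraries; an asterisk marks an adjusted p under 0.05. Mesothelial-like and fibroblast-like columns are mostly positive, and the valve interstitial-like column runs from 0.57 for Meg3 to -2.15 for Plagl1.

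Counted by class, the 10 genes were mostly higher in mesothelial-like and fibroblast-like nuclei. In mesothelial-like nuclei 7 were higher and 1 lower, where 32.9% of all genes tested were higher and 25.4% lower; the median log2 difference was 2.05 for the 10 and 0.00 for all genes. In fibroblast-like nuclei 6 were higher and 0 lower (18.7% and 12.3% of all genes), with a median of 0.72 against 0.02. In endothelial-like nuclei 5 were higher and 3 lower (21.8% and 17.1%), and in lymphatic endothelial-like nuclei 4 and 6 (12.1% and 10.3%). In the remaining classes, as in lymphatic endothelial-like nuclei, more of the genes were lower than higher: 2 higher and 6 lower in valve interstitial-like (18.3% and 15.5%), 2 and 5 in smooth muscle-like (22.5% and 18.8%), 2 and 3 in pericyte-like (8.70% and 4.67%), 3 and 7 in cardiomyocyte-like (33.3% and 32.9%) and 0 and 8 in macrophage-like nuclei (14.8% and 10.6%). The pericyte count of 5 was 3 without pool 1 and 3 without pool 2, and its direction was not stable. Without pool 1 the calls kept were Igf2r and Meg3, higher, and Igf2, lower. Among nuclei with at most 1% mitochondrial UMIs only Igf2r, higher, kept its call. Without pool 1 the calls of H19 (-0.86 against -1.29, adjusted p = 0.0810) and Peg3 (adjusted p = 0.201) were lost, and without pool 2 those of Meg3 (0.60 against 0.82) and Peg3 (adjusted p = 0.0605), while H19 was -2.02. Among nuclei with at most 1% mitochondrial UMIs, an alternative chosen after seeing the data that left fewer nuclei, the counts were 8 in mesothelial-like, 6 in fibroblast-like, 7 in endothelial-like, 5 in valve interstitial-like and 3 in lymphatic endothelial-like nuclei. They were 5 in macrophage-like and 1 in pericyte-like nuclei. The 6 in fibroblast-like nuclei were not the same genes, since Cdkn1c lost its call (0.59, adjusted p = 0.136) and Igf2 gained 1 (0.50, adjusted p = 0.0136).

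Valve interstitial-like and fibroblast-like nuclei, both mesenchymal, differed at most of these genes. Of the 10, 7 were lower in valve interstitial-like nuclei and 0 higher, where 9.98% of all genes tested were lower and 8.52% higher. The widest differences were Dlk1 (-3.83, SE 0.26, edgeR adjusted p = 9.2e-13), Plagl1 (-2.26, SE 0.27), Cdkn1c (-1.93, SE 0.25), Mest (-1.83, SE 0.18) and Peg3 (-1.76, SE 0.14), followed by Meg3 (-1.52, SE 0.24) and Igf2 (-1.20, SE 0.19, edgeR adjusted p = 1.2e-05). H19 (-0.56, SE 0.21, edgeR adjusted p = 0.0700), Igf2r (-0.27, SE 0.15) and Grb10 (-0.07, SE 0.16) did not pass; for H19 the test passed without pool 2 (-0.66, adjusted p = 0.0198). The median over the 10 genes was -1.64, beside -0.02 over all genes.

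Classes hid wide variation between their clusters, given here as description with no test. Among the 6 endothelial-like clusters, the 435 nuclei led by Kcnc2, Fam155a and Wnt9b, in which 7 endocardial markers passed, held 1390 ± 206 CPM of H19, 2347 ± 280 CPM of Igf2 and 809 ± 29 CPM of Igf2r, each above every pool of the other 5. Their mean median mitochondrial share was 2.75%, where the other 5 ran from 0.76% to 2.26%. The 243 nuclei led by Pcdh17 and Aplnr, with the capillary genes Gpihbp1 and Fabp4 among their leaders, held 712 ± 85 CPM of Mest, and the other 5 clusters 56.5 to 199 CPM; the same nuclei had the least H19 (242 ± 41 CPM) and Igf2 (391 ± 110 CPM) of the 6. Plagl1 was 532 ± 31 CPM in the 965 nuclei led by Grid1, 458 ± 57 CPM in those led by Mannr and Sema3g, and 104 ± 39 CPM in those led by Dlgap2.

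The 2 valve interstitial-like clusters held different levels of Meg3 and Dlk1. The 595 nuclei led by Ctnna2 and Abi3bp held 1448 ± 153 CPM of Meg3 and 50.2 ± 8.0 CPM of Dlk1, and the 947 led by Rmst and Pcdh15 held 580.0 ± 68.3 and 12.7 ± 5.9 CPM, with no overlap of pools in either gene. Grb10 was 716 ± 77 and 449.6 ± 12.6 CPM, Peg3 250.2 ± 25.2 and 139.6 ± 20.8 CPM, and Plagl1 53.6 ± 14.96 and 20.4 ± 6.5 CPM in the same order, so that Plagl1 was low in both. Of the 2 fibroblast-like clusters, the 285 nuclei led by Fgf10 and Pi16 held 3659 ± 623 CPM of Meg3, 539.8 ± 66.9 CPM of Dlk1 and 351 ± 121 CPM of Plagl1, against 2074 ± 332, 295 ± 68 and 82.8 ± 10.5 CPM in the 830 led by Abca8a. Among cardiomyocyte-like clusters, Meg3 was 718 ± 59 CPM in the 207 nuclei led by Ryr3 and 59.0 ± 16.6 CPM in the 1519 led by Fgf13. The mean median mitochondrial share was 1.08% in the Ctnna2 and 0.80% in the Rmst cluster. It was 1.175% in the Fgf10 and 0.65% in the Abca8a cluster, and 0.64% in the Ryr3 and 0.37% in the Fgf13 cluster. The part of RNA quality in these differences was not tested.

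**Figure D3:**
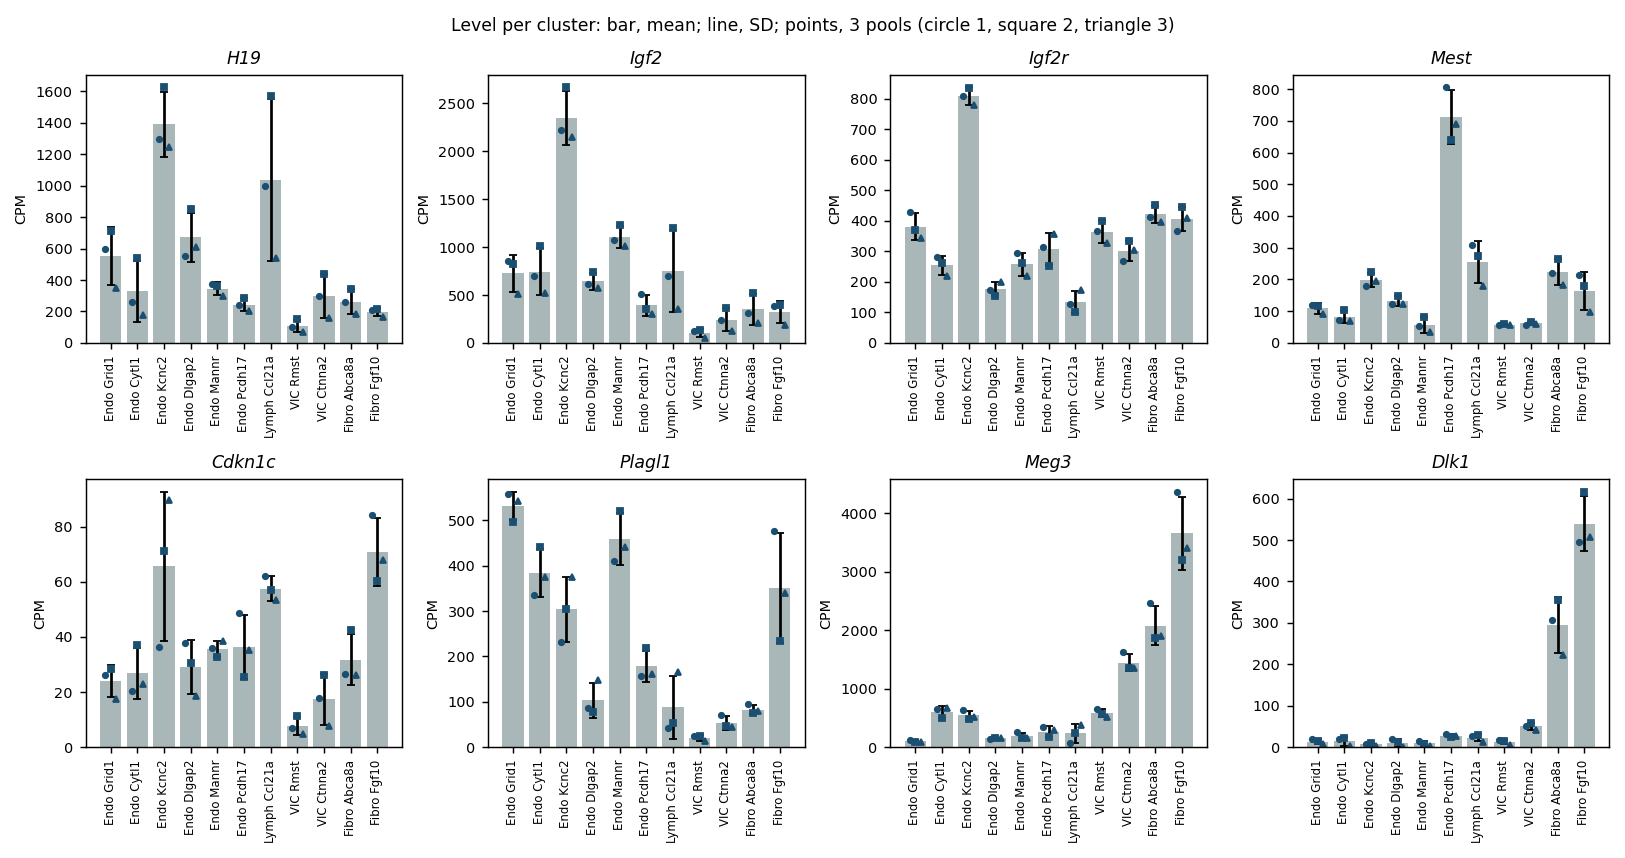
Level (CPM) of 8 imprinted genes in the endothelial-like, lymphatic endothelial-like, valve interstitial-like and fibroblast-like clusters, each named by its leading gene; bars are means, lines the SD and points the 3 pools. H19, Igf2 and Igf2r peak in the Kcnc2 cluster, Mest in the Pcdh17 cluster, and Meg3 and Dlk1 in the Fgf10 cluster.

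Across the 9 classes, 29 of the 45 pairs of genes had a positive correlation of mean log2(CPM + 1), with a median Pearson r of 0.22; the classes share libraries, and these values are a description. H19, Igf2, Mest and Cdkn1c varied together, with r = 0.97 for H19 and Igf2 (Spearman rho 0.93), 0.94 for Igf2 and Mest and 0.91 for Mest and Cdkn1c. The ribosomal protein and mitochondrial shares were highest in mesothelial-like (6.37% and 2.83%), lymphatic endothelial-like (3.01% and 1.74%) and endothelial-like nuclei (2.2% and 1.37%). Both were lowest in cardiomyocyte-like nuclei (1.08% and 0.439%). The part of this in the correlations was not tested. Among Dlk1, Meg3 and Peg3, r was 0.76 for Dlk1 and Meg3, 0.84 for Dlk1 and Peg3 and 0.78 for Meg3 and Peg3. Between the 2 sets r was 0.71 for Peg3 and Cdkn1c, 0.65 for Dlk1 and Cdkn1c and 0.64 for Mest and Peg3, and rho for Dlk1 and Peg3 was 0.63. Igf2r, Plagl1 and Grb10 were less alike to these genes, with r = -0.35 for Igf2r and Igf2 and 0.25 for Plagl1 and Igf2.

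**Figure D4:**
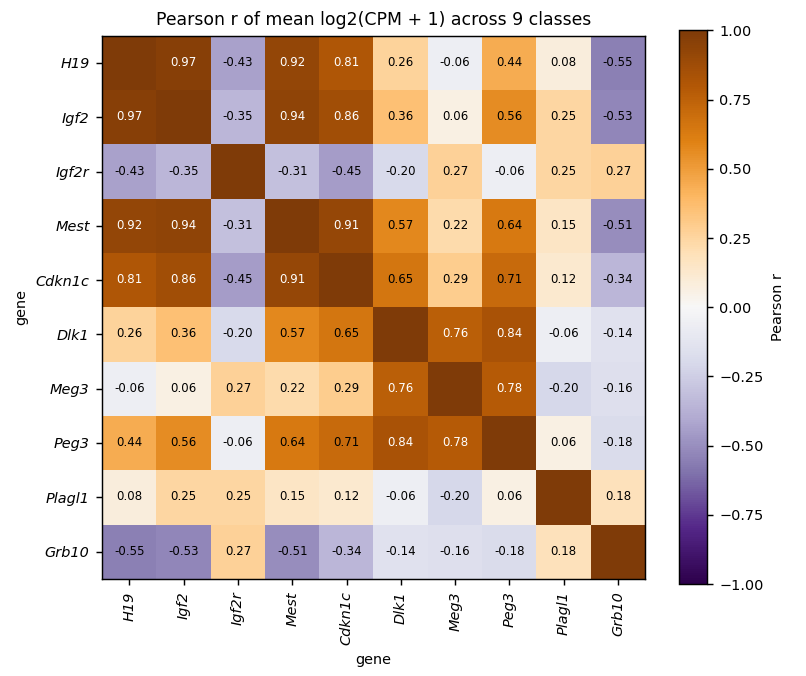
Pearson r between imprinted genes over the mean log2(CPM + 1) of 9 classes of nuclei, as a description. H19, Igf2, Mest and Cdkn1c form a block of high values, from 0.81 to 0.97, and Grb10 has negative values with each of these 4.

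For each gene the 3 genes of most similar pattern were found over the 27 libraries, after pool means were removed. Neighbours in the same imprinted domain came first for H19, Igf2, Igf2r, Meg3 and Plagl1: Igf2 for H19 (r = 0.96) and H19 for Igf2, Airn for Igf2r (r = 0.97), Rian (r = 0.98) and Mirg (r = 0.97) for Meg3, and Hymai for Plagl1 (r = 0.86). Airn is transcribed antisense through part of Igf2r and Hymai overlaps Plagl1, and no source used here says whether counting used strand, so reads of these pairs cannot be told apart with certainty. Other neighbours were less alike, at r = 0.71 for Dlk1 and Meg3, 0.73 for Peg3 and Usp29, 0.58 for Cdkn1c and Kcnq1ot1, 0.83 for Grb10 and Ddc and -0.62 for Mest and Copg2. After H19 itself, Igf2 was most like Klf2 (r = 0.96) and Ifitm2, and H19 most like Klf4 (r = 0.95) and S100a16. After their neighbours, Igf2r was most like LOC118568315 (r = 0.89) and Btrc (r = 0.88), and Meg3 like Olfml1 (r = 0.92). Plagl1 was next most like Sgms1 (r = 0.84) and Gm51671 (r = 0.77). Dlk1 was most like Spon2, Ogn and Gas1 (r = 0.89, 0.89 and 0.86), Mest like Igf2, S100a10 and Klf4, and Peg3 like Aox3, Gm33480 and Ren1. Cdkn1c was most like Rpl6 (r = 0.94), a ribosomal protein gene, S100a10 and S100a11, and Grb10 like Ehbp1 (r = 0.93), Gm30140 and Gm16793.

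The other imprinted genes listed were 55 in number, and 41 could be tested; all 41 differed among the classes, against 90.6% of all genes. The share of all genes called is given after each count, and the 9 higher of 41 in endothelial-like and in valve interstitial-like nuclei lie near it. In mesothelial-like nuclei 19 were higher and 10 lower (32.9% and 25.4% of all genes), led by Zdbf2 (log2 difference 4.95, SE 0.14), Ndn (3.68, SE 0.14) and Nnat (3.49, SE 0.11), with a median of 0.28 over the 41. In fibroblast-like nuclei 15 were higher and 5 lower (18.7% and 12.3%), among them Zim1, which lies beside Peg3 (3.42, SE 0.22), and Rian (2.36, SE 0.12) and Rtl1 (2.35, SE 0.11) of the Dlk1-Meg3 domain. In cardiomyocyte-like nuclei 17 were higher and 17 lower (33.3% and 32.9%), led by Ddc, beside Grb10 (5.86, SE 0.17), and Kcnq1, of the Cdkn1c domain (5.75, SE 0.15). In valve interstitial-like nuclei 9 were higher and 11 lower (18.3% and 15.5%) with a median of -0.03; Begain was higher (1.94, SE 0.49), and Kcnq1 (-2.18, SE 0.39), Herc3 (-2.17, SE 0.20) and Slc22a18 (-1.96, SE 0.77) lower. In endothelial-like nuclei 9 were higher and 11 lower (21.8% and 17.1%), with Asb4 (3.19, SE 0.22) and Slc22a18 (2.45, SE 0.31) higher and Cobl (-2.73, SE 0.22) and Zim1 (-2.50, SE 0.58) lower. All of these adjusted p-values, from the same edgeR fit, were under the threshold of 0.05.

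A further list of 20 genes held the ligand Igf1, receptors, binding proteins, receptor substrates, the Pappa proteases with their stanniocalcin inhibitors, the RNA-binding Igf2bp genes and Lin28b, and 19 could be tested; unlike the imprinted lists they had not been kept out of the clustering, so their differences are a description of the classes. Valve interstitial-like nuclei were higher in Igf1, the paralogous growth factor (2.26, SE 0.12), and in Pappa2 (3.92, SE 0.40) and Pappa (1.70, SE 0.14), proteases that cleave IGF binding proteins, and lower in Igfbp5 (-1.74, SE 0.21); 7 of the 19 were higher and 5 lower, where 18.3% and 15.5% of all genes were. Mesothelial-like nuclei were higher in 14 and lower in 2 (32.9% and 25.4% of all genes), led by the binding protein Igfbp6 (8.32, SE 0.11), the protease Pappa2 (6.11, SE 0.30) and the binding proteins Igfbp5 (5.59, SE 0.12) and Igfbp3 (4.46, SE 0.12). Endothelial-like nuclei were higher in 6 (21.8% of all genes), Igfbp4 among them (1.33, SE 0.12), and lower in 8 (17.1%), among them Pappa (-3.04, SE 0.23) and the receptor substrate Irs1 (-2.64, SE 0.17).

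Cycling nuclei were compared with other nuclei of the same pool, class and depth, since Cdkn1c and Plagl1 are known to restrain the cell cycle. A nucleus counted as cycling with at least 2 UMIs of 12 mitosis genes such as Mki67 and Top2a, and 5 classes had at least 10 pairs in every pool; there were 13 to 190 pairs per class and pool. Averaged over the 5 classes, 1 of the 10 genes was lower and 0 higher, where 4.82% of the 7489 genes tested were lower and 10.2% higher. That gene was Plagl1 (-0.73, SE 0.25, edgeR adjusted p = 0.0449). Its call was lost without pool 2 (-0.57, adjusted p = 0.209), with DESeq2 (adjusted p = 0.0579), without the block (adjusted p = 0.0543), with pairs matched within clusters (-0.48, adjusted p = 0.286), with library totals (adjusted p = 0.0668) and with at least 3 cycle UMIs over 4 classes (-0.72, adjusted p = 0.146), and the value was -1.45 without pool 1 (adjusted p = 0.0168). Meg3 (-0.24, SE 0.14) did not pass; it passed without pool 3 (-0.53, adjusted p = 0.00207), with pairs matched within clusters (-0.38, adjusted p = 0.0190), with at least 3 cycle UMIs, where 4 classes had enough pairs and cardiomyocyte-like nuclei did not (-0.55, adjusted p = 0.0207), and with at least 1, where pericyte-like nuclei entered as a 6th class (-0.26, adjusted p = 0.0385), and was -0.045 (adjusted p = 0.962) without pool 1. Cdkn1c (0.25, SE 0.36), Igf2 (-0.10, SE 0.12) and Igf2r (0.01, SE 0.10) did not pass, and Igf2 passed over the 4 classes with enough pairs at 3 or more cycle UMIs (-0.51, adjusted p = 0.0195).

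Within single classes, Plagl1 was lower in cycling endothelial-like nuclei (-1.05, SE 0.33, edgeR adjusted p = 0.0496), the 1 call among 10 genes there, where 6.74% of genes tested were called. It was lost without pool 3 (adjusted p = 0.140) and with 5 other alternatives. No gene of the 10 passed in cardiomyocyte-like (4.26% of all genes), fibroblast-like (4.89%), smooth muscle-like (5.80%) or valve interstitial-like nuclei (3.90%) by edgeR; at an unadjusted p under 0.05 there were 0, 3, 0 and 0, and DESeq2 called 0 in each. A test of whether the effect of cycling differed between the 5 classes called 0 of the 10, with 1 at an unadjusted p under 0.05, and 0.307% of all genes.

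**Figure D5:**
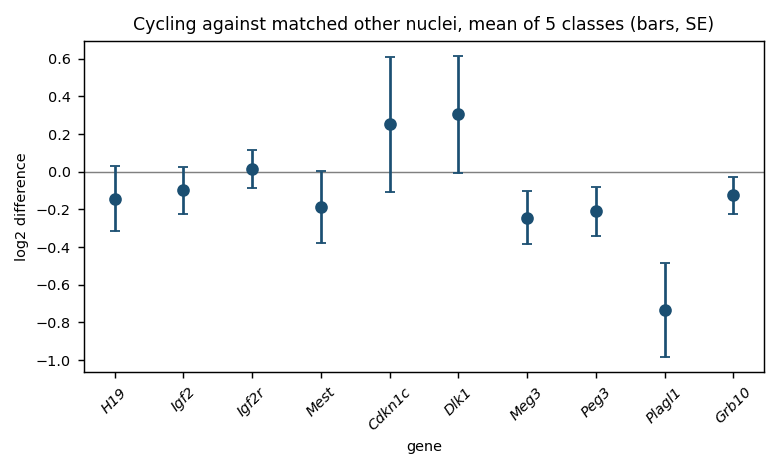
Log2 difference of each imprinted gene between cycling nuclei and depth-matched other nuclei, averaged over 5 classes; bars are the SE from edgeR. Plagl1 lies lowest at -0.73, and the other 9 lie between -0.24 and 0.31.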

How the data were processed

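Nuclear RNA of 3 pools was sequenced with a droplet 3' gene expression assay. The deposited matrices hold UMI counts per gene and nucleus, which the authors produced with Cell Ranger, version 7.1.0 according to the file headers; the submitters' processing notes list Cell Ranger 7.0.1 and 7.1.0 and the build GRCm39. The gene annotation and the use of strand are not given in the sources used here. The members and gene lists were chosen with earlier results of these data known.

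A nucleus was kept if it held 1000 UMIs or more, 300 genes or more and no more than 5% mitochondrial UMIs. Scrublet's own threshold marked 0 nuclei, so the top scores, at 0.8% per 1000 nuclei, were removed as doublets (597, 154 and 138). Nuclei were clustered with scanpy 1.11.5 (2000 variable genes, 30 components, 15 neighbours, Leiden resolution 1), with the members, other listed imprinted genes and cell cycle genes left out. A cluster was named for a class when at least 3 of its markers were found in at least 10% of nuclei at 2-fold or more over the rest. A rule added after seeing the data kept a cluster with 3 markers of both pericytes and smooth muscle out of the pericytes unless Kcnj8 passed; it placed the 1645 nuclei led by Clca3a2, with 4 pericyte and 3 smooth muscle markers, among the smooth muscle-like.

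Counts were summed per pool and class (27 libraries) and tested with edgeR 4.0.16 (TMM, filterByExpr, glmQLFit and glmQLFTest, pool as block); SE is the difference divided by the square root of F. The pools are the replicates, and the block was used because every class came from the same 3 pools. Pools held 49918251, 25341316 and 21254247 UMIs. Every member is named, with the 3 genes of most similar pattern, and from each other list up to 4 genes with the widest difference past the threshold. Alternatives were DESeq2 1.42.0, other normalization, filters, clusterings and leaving out each pool. The fits were tested on simulated data.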

Additional observations from a re-analysis of the deposited data

How the results depend on the processing

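Of the 100 values of the 10 genes in 9 classes and in valve interstitial-like against fibroblast-like nuclei, 77 passed the test, and 55 of these kept direction and call in every alternative run. A value was counted as reversed when its sign changed and it passed in the main run or in the alternative. Reversed values were Dlk1 (-0.46), Peg3 (0.063) and Grb10 (0.35) in pericyte-like nuclei with no mitochondrial limit, Grb10 in pericyte-like nuclei at 500 or more UMIs (0.37), and Plagl1 in lymphatic endothelial-like nuclei with at most 1% mitochondrial UMIs (0.0071). The cause was not tested. Values that passed in neither run could also change sign, such as Plagl1 in mesothelial-like nuclei (0.19, with a lowest alternative of -0.53) and Cdkn1c in pericyte-like nuclei (-0.28, with a highest of 0.44). At that limit, which leaves fewer nuclei, the counts of genes called were 3 in lymphatic endothelial-like, 5 in macrophage-like, 1 in pericyte-like and 5 in valve interstitial-like nuclei. Without the cluster led by Clca3a2 the smooth muscle-like count was 6 against 7. Without the replicate block, the pairing of classes by pool, the pericyte-like count was 3, and those of cycling over classes and in endothelial-like nuclei 0 each. With DESeq2, and with library totals in place of TMM, the counts of cycling over classes and in endothelial-like nuclei were 0 each. Leaving out each pool gave 3 to 5 in pericyte-like nuclei and 0 to 2 for cycling over classes. With pairs matched within clusters, cycling called 0 in endothelial-like, 1 in fibroblast-like and 1 in valve interstitial-like nuclei. With at least 3 cycle UMIs, where cardiomyocyte-like nuclei dropped out, it called 2 over 4 classes and 0 in endothelial-like nuclei, and with at least 1, where pericyte-like nuclei entered, it called 2 over 6 classes, 3 in endothelial-like and 2 in fibroblast-like nuclei. Counts over all genes fell without pool 1, which held the most nuclei and UMIs, as in pericyte-like nuclei (996 against 1909), and at most 1% mitochondrial UMIs, as in mesothelial-like (2651 against 8326) and lymphatic endothelial-like nuclei (817 against 3205). With no mitochondrial limit the pericyte-like count rose to 5615. With no mitochondrial limit 21 of 90 levels moved by more than the spread between pools, and with doublets kept 4. Pericyte-like and lymphatic endothelial-like nuclei, the fewest, limit the precision.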

Other observations

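Classes with too few nuclei for the tests were read as sums over the pools, with exact Poisson intervals that cover counting error only. The 71 melanocyte-like nuclei held Grb10 at 488 CPM (419 to 565) and Igf2r at 252 CPM (203 to 309), and 1 UMI of Cdkn1c, 2.74 CPM (0.069 to 15.3). The 57 adipocyte-like nuclei, 45 of them in pool 1, held Peg3 at 343 CPM (285 to 411) and Dlk1 at 88.7 CPM (60.3 to 126), and Mest at 48.6 CPM (28.3 to 77.9). The 24 B cell-like nuclei held 9 UMIs of H19.

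The 357 erythroid-like nuclei, of median depth 1566.0 UMIs of which 216, 123 and 18 were in pools 1, 2 and 3, held H19 at 689 CPM (632 to 749), Meg3 at 1195 CPM (1120 to 1274) and Dlk1 at 243 CPM (209.9 to 280.2). Their ribosomal protein share was 6.28% and their mean median mitochondrial share 3.61%. These levels lie above those of several tested classes, such as 69.5 CPM of H19 in cardiomyocyte-like nuclei, and the part of free RNA in either was not tested. The unnamed cluster of 163 nuclei, 135 of them in pool 3, held Grb10 at 852 CPM (827 to 878) and Plagl1 at 163 CPM (152 to 174).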
